A study of Mus musculus with 6 samples.

Results

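Ependymal cells, the ciliated cells that line the brain's ventricles, were taken from droplet single-cell RNA libraries of old mouse hippocampus by a gate on 6 genes of motile cilia. A cell was a member when Cfap299, Spag17, Cfap54, Tmem212, Ccdc153 and Foxj1 together reached 30 counts per 10000 counts of the cell (CP10k) from at least 5 unique molecular identifiers (UMIs, each tagging a captured transcript), and when the choroid plexus genes Htr2c and Otx2os1 together stayed under 10 CP10k. The gate took 581 of 50287 kept cells. The members were thus chosen by the measured levels of these genes in the same cells, so those levels describe the choice and are no finding.

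Ependymal cells carry tufts of motile cilia on the face turned to the cerebrospinal fluid, and the beat of these cilia moves the fluid along the ventricle wall. A motile cilium is built on paired microtubules, with dynein arms that slide them, radial spokes and a central pair that time the beat, and nexin links that hold the doublets together. Intraflagellar transport carries the parts in, and transcription factors of the RFX family and FOXJ1 switch on the genes for them.

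The series holds 6 libraries, 3 from old mice given 2% sevoflurane, a volatile anaesthetic, for 6 h, and 3 from old mice kept in air (Control). Hippocampus was taken 24 h after the exposure, digested with collagenase, frozen as a suspension and thawed before the libraries were made. The labels give no strain, age in months or sex, nor whether every library came from its own mouse, so the p-values reflect only the spread among libraries, which may be technical in part. Ependymal cells in such tissue come from ventricle wall that stayed on the dissected hippocampus, and how much of it each dissection took was not recorded in the sources used here.

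The libraries held 54426522 to 70741809 UMIs in 7068 to 9795 barcodes, and no pair shared more than 0.333% of its barcodes. The library Sevoflurane 1 stood apart: it had 1398 CPM (UMIs of a gene scaled to 1e6 UMIs in total) of Xist, the transcript made by the silenced X of female cells, against at most 1.21 in the other libraries, so results that lean on it are also given without it. Ttr, the transthyretin gene and the most abundant transcript of the choroid plexus, stood at 2.28 to 2.67 CPM over all kept cells of the Sevoflurane libraries and at 70.2 to 527 CPM in the Control libraries.

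The gate cut through a thin part of the distribution. Of 2606 cells with at least 5 UMIs of the gate genes and little Htr2c and Otx2os1, 1939 lay under 10 CP10k and 528 above 40 CP10k. Just outside the gate, from 25 to 30 CP10k, lay 9 cells, and just inside, from 30 to 35 CP10k, lay 28, of which 14 belonged to Sevoflurane 2. The members' median was 65.6 CP10k from 23 UMIs. Cfap299 was detected in 98.8% of members, Tmem212 in 95.7%, Cfap54 in 95.2%, Spag17 in 91.6% and Ccdc153 in 65.6%. Foxj1, the master regulator of motile cilia, was detected in 33.0% of them. At least 4 of the 6 genes were detected in 545 members, which is 93.8%.

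**Figure D1:**
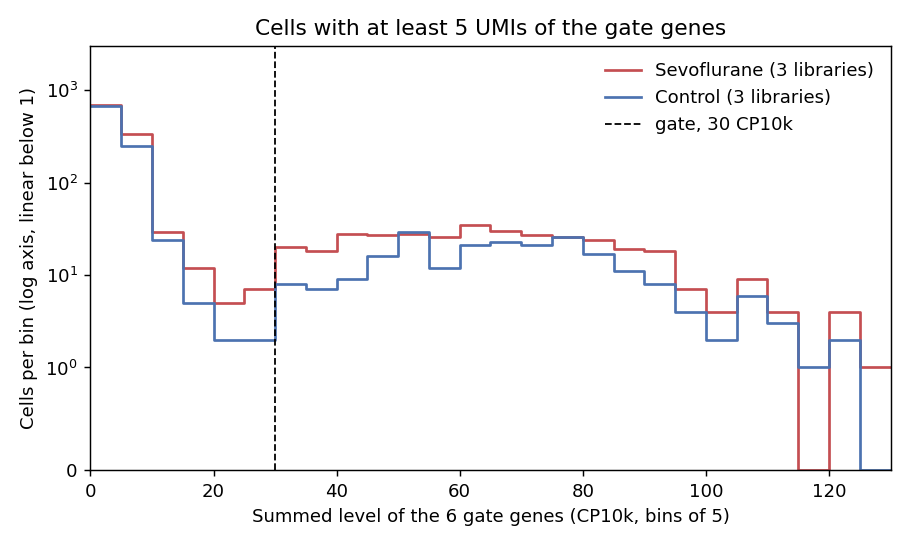
The plot gives the number of cells (log axis, linear below 1) by the summed level of the 6 gate genes in bins of 5 CP10k, for the 3 Sevoflurane and the 3 Control libraries, with the gate as a dashed line. Cells were few from 20 to 30 CP10k in both groups, and the members spread around a median of 65.6 CP10k.

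Markers outside the gate went with the label. The 11 further ependymal markers on the marker list were Rarres2, Dynlrb2, Pltp, Mia, Hydin, Dnah12, Rsph1, Tekt1, Ak7, Sox9 and Cd24a. With every cell thinned to 2000 UMIs, at least 3 of these 11 were detected in 89.9% to 97.0% of members per library, against 0% to 1.09% of cells of an astrocyte gate, which took 1243 cells by Aqp4, Gja1, Fgfr3, Slc39a12, Slc7a10 and Cldn10. The summed level of the 11 was 5125 to 6524 CPM in ependymal cells, against 125 to 175 CPM in astrocyte-gated cells and 40.1 to 56.5 CPM in all other kept cells. Of the 6 markers of tanycytes, the unciliated relatives of ependymal cells in the floor of the ventricle, Rax was at 0 in every library, and the summed level of the list was 198 to 279 CPM in ependymal cells and 127 to 149 CPM in the other kept cells. The 12 neuron markers summed to 2792 to 3455 CPM in ependymal cells, against 20110 to 21130 CPM in the other kept cells. This sum was 2792 to 3455 CPM in Sevoflurane and 3119 to 3380 CPM in Control ependymal cells. Its part in the results was examined only by an alternative fit in cells with few neuron markers, given at the end.

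The cilium was the signature of these cells at every level of its structure. Dynein arm genes summed to 9961 to 12840 CPM in ependymal cells, against 294 to 334 CPM in the other kept cells, and central pair genes to 8257 to 9931 CPM against 153 to 195 CPM. Radial spoke genes summed to 2736 to 3570 CPM, against 96.5 to 109 CPM in the other kept cells. Genes of intraflagellar transport and the BBSome, which also serve the primary cilia of other cells, had a narrower gap, with 4152 to 4591 CPM in ependymal cells against 1447 to 1513 CPM in the other kept cells. The list of multiciliation regulators and centriole genes was closer still, with 2415 to 2997 CPM against 982 to 1109 CPM. These gaps describe the gated cells and carry no test.

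**Figure D2:**
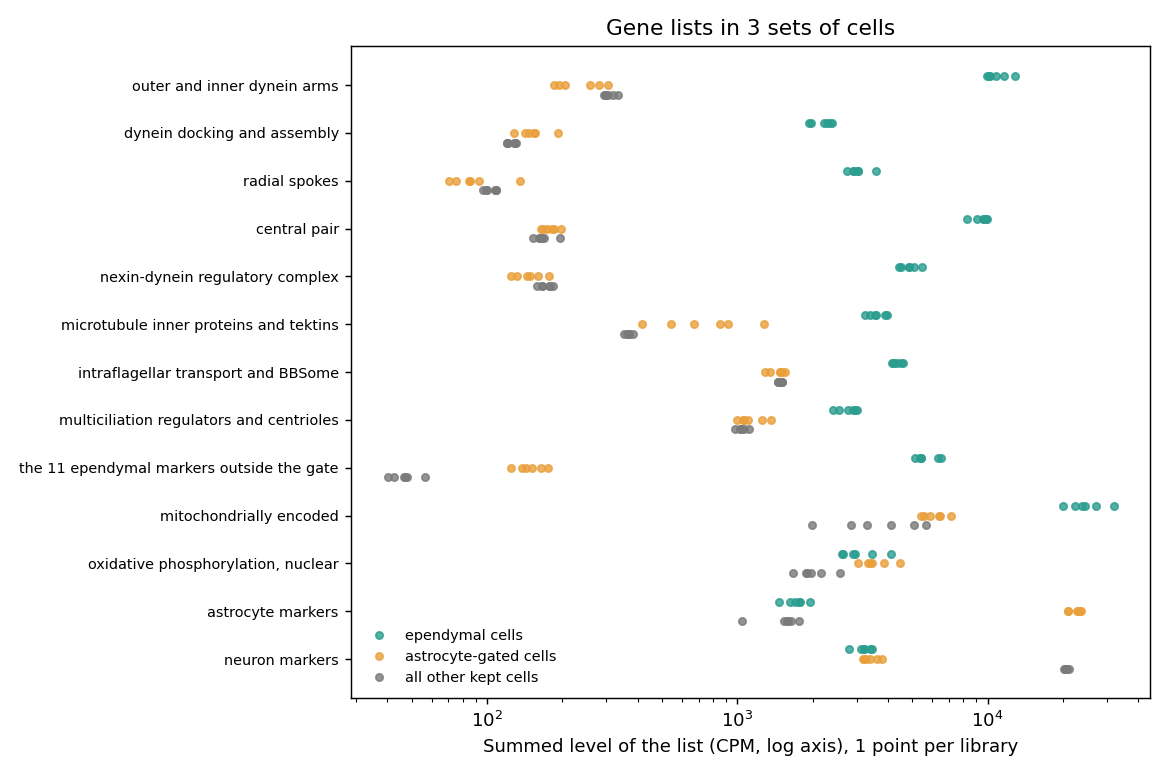
Each point is the summed level of a gene list in a library (CPM, log axis) in ependymal cells, astrocyte-gated cells and all other kept cells, with 6 libraries per set of cells. The ciliary lists lie to the right in ependymal cells, astrocyte markers in astrocyte-gated cells and neuron markers in the other kept cells.

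The genes that marked the cells most sharply were not all textbook cilium genes. Among genes of at least 100 CPM, Gm47888 had the highest ratio to the other kept cells, at 259 CPM against 0.2202 CPM. Unc5cl, a death-domain protein related to netrin receptors, stood at 756 CPM against 0.660 CPM, and Dnah12, an inner-arm dynein heavy chain, at 2311 CPM against 3.07 CPM. The other 12 of the 15 highest ratios belonged to 4930567H12Rik, Dthd1, Gm10714, Ccdc180, Zfp474, Gm12695, Wdr49, Frmpd2, 1700012P22Rik, Lrrc36, Ttll6 and Gm45783. Dthd1 varied between libraries more than the rest, from 43.8 to 523 CPM, and 1700012P22Rik from 33.6 to 307 CPM. The high and low libraries of these 2 genes did not follow the groups: Dthd1 stood at 568, 66.3 and 326 CPM in Sevoflurane ependymal cells after normalization, and at 209 ± 139 CPM (SD, n = 3) in Control ones.

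Ependymal cells also stood apart in mitochondrial transcripts. The median share of mitochondrially encoded UMIs per cell was 1.44% to 2.39% in ependymal cells of the 6 libraries, against 0.140% to 0.394% in the other kept cells and 0.260% to 0.520% in astrocyte-gated cells, and it was higher in 6 of 6 libraries in both comparisons. Depth did not run the same way: ependymal cells had 3047 to 3997 median UMIs per library, fewer than the other kept cells (5607 to 6518) and more than astrocyte-gated cells (2745 to 3229) in 6 of 6 libraries. Nuclear genes of oxidative phosphorylation summed to 2612 to 4105 CPM in ependymal cells against 3027 to 4467 CPM in astrocyte-gated cells and 1661 to 2562 CPM in the other kept cells. The gap to astrocyte-gated cells in mitochondrial transcripts was thus not matched in the nuclear genes.

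Promoter sequence was read for the ciliary genes because RFX factors bind a palindromic site, the X-box. The search used a 14-letter form of it, GTTNCC and GNAAC set 3 free bases apart, on both strands, in RefSeq promoters of GRCm38.p6 that run from 250 bases before to 50 bases after a gene's start. It matched 14 of 136 genes of the gate and the ciliary lists (10.3%, with 136 of 167 found in the table), against 0.936% of all 27018 genes. The 7-letter core GTTGCCA, which can lie within the longer motif, was in 33 of the 136 (24.3%), against 5.03% of all genes. The forkhead letters TGTTTAC, the kind of site FOXJ1 belongs to, were in 4 of the 136 (2.94%), against 4.05% of all genes. Of the 6 gate genes, 3 were in the table and none held a match. A match is a description of these letters and not a bound site. The 4 matched genes with the highest levels in ependymal cells are shown, each 5′ to 3′ on the gene's strand, with the matched 14 letters in capitals. For Spag16 and Cfap61 these letters fit the motif as printed, and for Cfap44 and Hydin they fit it when read on the opposite strand. Spag16 and Hydin build the central pair, Cfap44 belongs to the tether of inner dyneins and Cfap61 to the radial spokes. All 4 lie on the plus strand, at chr1:69826720-69827019, chr16:44394549-44394848, chr8:110266727-110267026 and chr2:145934534-145934833, and the match begins 103, 27, 21 and 8 bases before the start.
Spag16: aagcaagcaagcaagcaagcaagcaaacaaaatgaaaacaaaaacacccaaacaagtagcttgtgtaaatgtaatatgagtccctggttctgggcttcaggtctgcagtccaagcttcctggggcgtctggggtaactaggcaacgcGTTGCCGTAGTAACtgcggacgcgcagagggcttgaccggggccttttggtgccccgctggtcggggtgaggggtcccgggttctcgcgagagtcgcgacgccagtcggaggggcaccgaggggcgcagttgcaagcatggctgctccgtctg
Cfap44: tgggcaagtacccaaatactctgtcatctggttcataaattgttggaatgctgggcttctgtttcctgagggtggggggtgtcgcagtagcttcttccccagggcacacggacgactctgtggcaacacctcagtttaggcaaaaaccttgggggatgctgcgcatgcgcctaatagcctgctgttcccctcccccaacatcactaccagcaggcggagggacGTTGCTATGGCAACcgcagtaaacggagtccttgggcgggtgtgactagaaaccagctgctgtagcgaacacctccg
Hydin: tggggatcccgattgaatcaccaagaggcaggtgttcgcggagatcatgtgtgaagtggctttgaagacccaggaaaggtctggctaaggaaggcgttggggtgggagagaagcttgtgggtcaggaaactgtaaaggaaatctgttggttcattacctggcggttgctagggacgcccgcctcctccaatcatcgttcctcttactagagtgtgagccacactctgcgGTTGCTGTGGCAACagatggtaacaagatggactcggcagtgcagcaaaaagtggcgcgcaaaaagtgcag
Cfap61: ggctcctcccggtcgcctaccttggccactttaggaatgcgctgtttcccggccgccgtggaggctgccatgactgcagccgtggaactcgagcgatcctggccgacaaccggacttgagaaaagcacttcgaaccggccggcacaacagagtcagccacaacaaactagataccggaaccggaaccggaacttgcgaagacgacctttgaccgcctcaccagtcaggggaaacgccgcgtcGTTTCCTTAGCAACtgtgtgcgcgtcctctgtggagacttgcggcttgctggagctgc

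The first comparison asked whether sevoflurane exposure changed how many ependymal cells were caught and how deep they were. They made up 1.32 ± 0.412% of kept cells in Sevoflurane and 0.969 ± 0.166% in Control libraries (mean ± SD, n = 3 each, two-sided exact permutation p = 0.3, where 3 against 3 libraries cannot go below 0.1). Sevoflurane 2 was the highest, with 154 of 8609 cells (1.79%, Wilson 95% interval 1.53% to 2.09%), while Sevoflurane 1 held 1.00% (0.825% to 1.22%) and Sevoflurane 3 held 1.18% (0.973% to 1.43%). The Control libraries held 1.04% (0.825% to 1.30%), 1.09% (0.894% to 1.33%) and 0.780% (0.604% to 1.01%), so the groups overlapped. The intervals cover counting error only. Median UMIs per ependymal cell were 3476 ± 408 in Sevoflurane and 3746 ± 228 in Control libraries (exact permutation p = 0.4, n = 3 each). The median mitochondrial share was 1.85 ± 0.478% in Sevoflurane and 1.64 ± 0.191% in Control ependymal cells (exact permutation p = 0.7, n = 3 each).

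The second comparison asked which genes differed in ependymal cells after the exposure. UMIs were summed over the ependymal cells of each library and tested with the quasi-likelihood test of edgeR, with Benjamini-Hochberg adjustment over all 7830 genes tested and a threshold of 0.05. It called 44 genes, 0.562% of those tested, with 31 higher (0.396%) and 13 lower (0.166%) in Sevoflurane. The 3 Sevoflurane libraries lay wholly above or below the 3 Control libraries in all 44, as they did in 14.3% of all genes tested. The levels that follow are CPM with TMM factors, unless a sentence compares sets of cells, where they are plain CPM.

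Genes of the 8 ciliary lists were the largest group measured, and 0 were called by edgeR or by DESeq2. Cilium genes outside these lists, such as the called Arl13b and Rp1 below, are not in this count. Of 161 genes in the 8 ciliary lists, 144 had enough UMIs to be tested. An unadjusted p under 0.05 was found for 10 of the 144 (6.94%), against 9.49% of all genes tested. Their median log2 fold change was -0.04, beside 0.01 for all genes tested. Groups without overlap were seen for 5 of the 144 members higher and 17 of the 144 lower in Sevoflurane, against backgrounds of 7.15% and 7.14% of all genes tested. The higher share was thus below its background and the lower share above it. The central pair held 5 of the lower members, of 15 tested, and the multiciliation regulators 4, of 16 tested. The plain summed level of the multiciliation list was 2415 to 2773 CPM in Sevoflurane and 2895 to 2997 CPM in Control ependymal cells. The changes were small where the counts were good: all 66 ciliary genes of at least 200 CPM lay within 0.5 on the log2 scale, against 94.2% of the 1001 genes tested at that level. Members of both groups had to reach the same summed level of the gate's cilium genes, so cells with few ciliary transcripts could not enter. The part of this choice in the small changes was not tested. The range over the 144 ran from -0.72 for Hspb11, an intraflagellar transport subunit with 28.3 ± 9.46 CPM in Sevoflurane and 45.6 ± 30.4 CPM in Control, to 0.69 for Efcab2, a nexin link subunit with 232 ± 19.3 CPM in Sevoflurane and 144 ± 15.3 CPM in Control (SD, n = 3 each, edgeR adjusted p = 0.653 and 0.186).

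Within the axoneme, the dynein heavy chain Dnah12 stood at 2573 ± 437 CPM in Sevoflurane and 2426 ± 237 CPM in Control, and Dnah9, a heavy chain of the outer arm, at 1113 ± 94.0 CPM and 1165 ± 44.4 CPM. The central pair genes Spag16 and Spef2 stood at 2445 ± 438 and 1140 ± 90.8 CPM in Sevoflurane, against 2539 ± 275 and 1334 ± 89.6 CPM in Control. None of these differences passed the test, and the groups' spreads overlapped for Dnah12, Dnah9 and Spag16. Armc4, needed for docking of outer dynein arms, had the largest difference among the 16 members named for their high levels, with 529 ± 60.0 CPM in Sevoflurane and 722 ± 59.2 CPM in Control (log2 fold change -0.45 ± 0.16 SE, edgeR adjusted p = 0.309). The regulators of multiciliation had the lowest median of the 8 lists, -0.16, with 0 of 16 tested members called. Among them Rfx3, an X-box binding factor, stood at 986 ± 94.2 CPM in Sevoflurane and 1197 ± 28.6 CPM in Control, and Trp73, a p53 relative needed to make multiciliated cells, at 90.8 ± 12.8 and 145 ± 17.8 CPM (adjusted p = 0.587 and 0.282). The gate genes, shown only as a description, differed by -0.16 to 0.19 on the log2 scale.

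**Figure D3:**
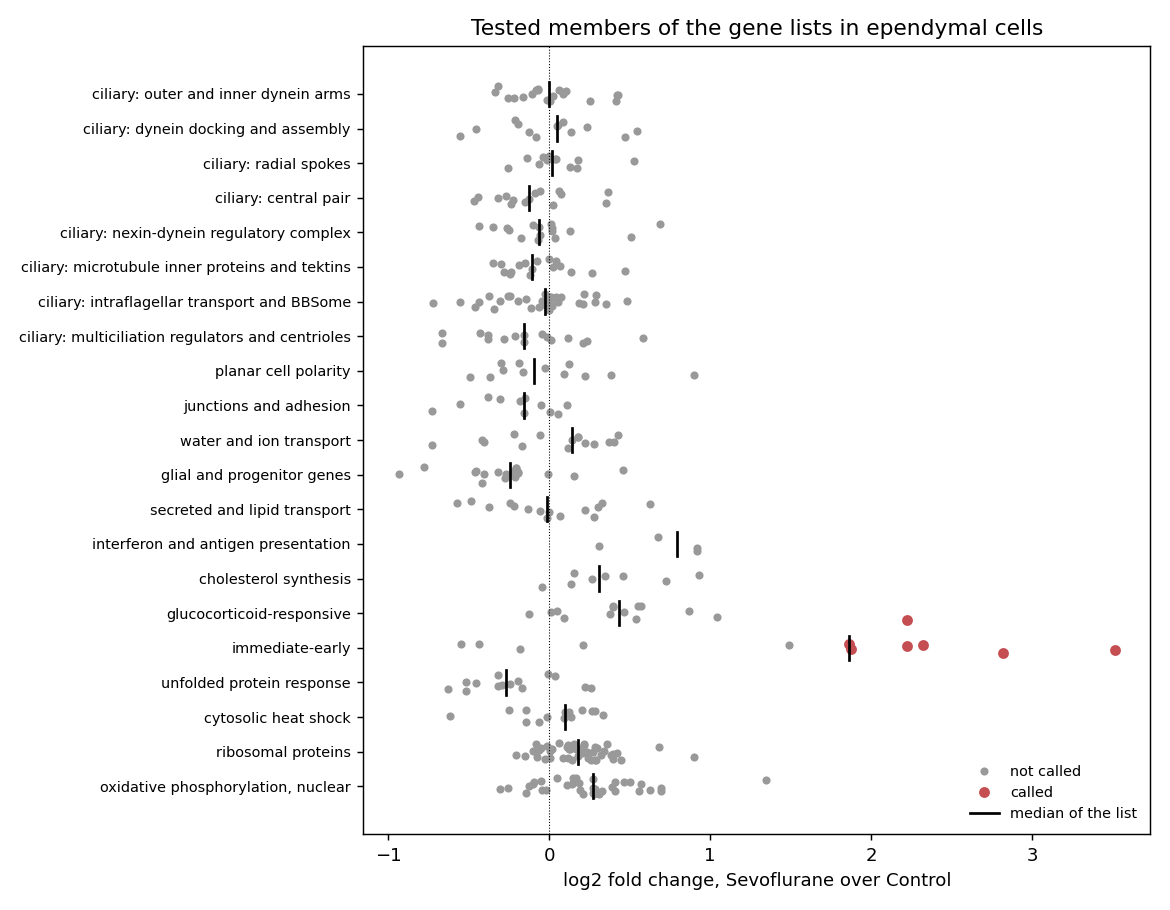
Each point is the log2 fold change of a tested gene in ependymal cells, Sevoflurane over Control, by gene list. Called genes are red, the bar is the list's median and the vertical position within a list has no meaning. The 6 called members all belong to the immediate-early list, and Dusp1 appears a further time among glucocorticoid-responsive genes.

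Immediate-early genes, which cells switch on within minutes of a stimulus without making new protein first, were the list with the most calls. Of 26 in the files, 11 were tested, and 6 were higher and 0 lower in Sevoflurane, beside 0.396% of all genes called higher. The median log2 fold change of the 11 was 1.86, beside 0.01 for all genes. The 15 untested members had too few UMIs, and 4 of the 6 called ones (Fos, Junb, Nr4a1 and Dusp1) passed the filter on low counts only through their Sevoflurane libraries. They had to differ to be tested, so the count and the median carry less than they appear to.

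Nr4a3, an orphan nuclear receptor gene at chr4:48045153-48086447 (GRCm38, GENCODE M21, matched by Ensembl ID, as for the positions below), rose most. It stood at 490, 238 and 231 CPM in the Sevoflurane libraries 1 to 3, against 36.1, 27.97 and 16.9 CPM in the Control libraries, from 188, 122 and 95 UMIs against 10, 11 and 4. Every Sevoflurane library was far above every Control library, with Sevoflurane 1 the highest. The log2 fold change was 3.51 ± 0.34 (SE), with an edgeR adjusted p of 2.76e-06. The share of cells with an Nr4a3 UMI was higher too. At 2000 UMIs per cell it was 21.6% to 29.4% of Sevoflurane ependymal cells, against 3.37% to 4.35% of Control ones. Without thinning it was 26.6% to 36.7% against 6.90% to 12.3%, so most Sevoflurane ependymal cells had no Nr4a3 UMI. In astrocyte-gated cells at 2000 UMIs per cell the shares were 1.87% to 4.37% in Sevoflurane and 2.78% to 6.16% in Control.

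Egr1, a zinc-finger factor, stood at 172, 99.4 and 112 CPM in Sevoflurane and at 43.3, 30.5 and 29.5 CPM in Control (log2 fold change 1.87 ± 0.31 SE, edgeR adjusted p = 0.00218). Fos, a subunit of AP-1, stood at 130, 37.1 and 34.1 CPM in Sevoflurane, against 7.21, 2.54 and 21.1 CPM in Control (2.82 ± 0.63 SE, adjusted p = 0.0334). Sevoflurane 1 was the highest library for both genes, and for Fos it was more than the other Sevoflurane libraries together. Nr4a1, a relative of Nr4a3, stood at 125, 31.2 and 53.5 CPM in Sevoflurane, against 3.61, 15.3 and 21.1 CPM in Control (2.32 ± 0.54 SE, adjusted p = 0.0448). Dusp1, a phosphatase that turns off MAP kinases, stood at 198, 58.5 and 63.3 CPM in Sevoflurane, against 18.03, 22.9 and 25.3 CPM in Control (2.22 ± 0.46 SE, adjusted p = 0.0184). Sevoflurane 1 again led both. Junb, the AP-1 subunit led by Sevoflurane 2, stood at 46.9, 79.9 and 41.4 CPM in Sevoflurane and 14.4, 12.7 and 21.1 CPM in Control (1.86 ± 0.41 SE, adjusted p = 0.0334).

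Apart from Nr4a3, which kept its call throughout, each of the 6 calls was lost in some setting. Without Sevoflurane 1 the edgeR adjusted p was 0.177 for Fos, 0.196 for Nr4a1 and 0.076 for Dusp1, with log2 fold changes of 1.96, 1.63 and 1.45. It was 0.3004 for Junb without Sevoflurane 2 and 0.0698 for Nr4a1 without Sevoflurane 3. With doublets removed it was 0.0824 for Junb. The other tested members were not called: Btg2 had a log2 fold change of 1.49 ± 0.38 (SE, adjusted p = 0.0934), while Nr4a2, Jun, Klf6 and Jund had values of 0.21, -0.18, -0.44 and -0.55. Leaving out Control 1, 2 or 3 in turn left 2, 1 and 3 members called, with Nr4a3 called each time and Egr1 at an adjusted p of 0.0668 without Control 2. DESeq2 called 4 members, with adjusted p of 0.459 for Fos and 0.181 for Junb. In the other kept cells plain levels of Nr4a3 were 34.2 to 53.6 CPM in Sevoflurane and 25.3 to 29.2 CPM in Control. The plain sum of the whole immediate-early list there was 334.2 to 448.5 CPM in Sevoflurane and 257.8 to 324.3 CPM in Control, without overlap. In astrocyte-gated cells the groups overlapped, at 361.7 to 523.4 and 332.7 to 372.7 CPM. The list was thus higher outside the ependymal cells too, in the other kept cells.

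**Figure D4:**
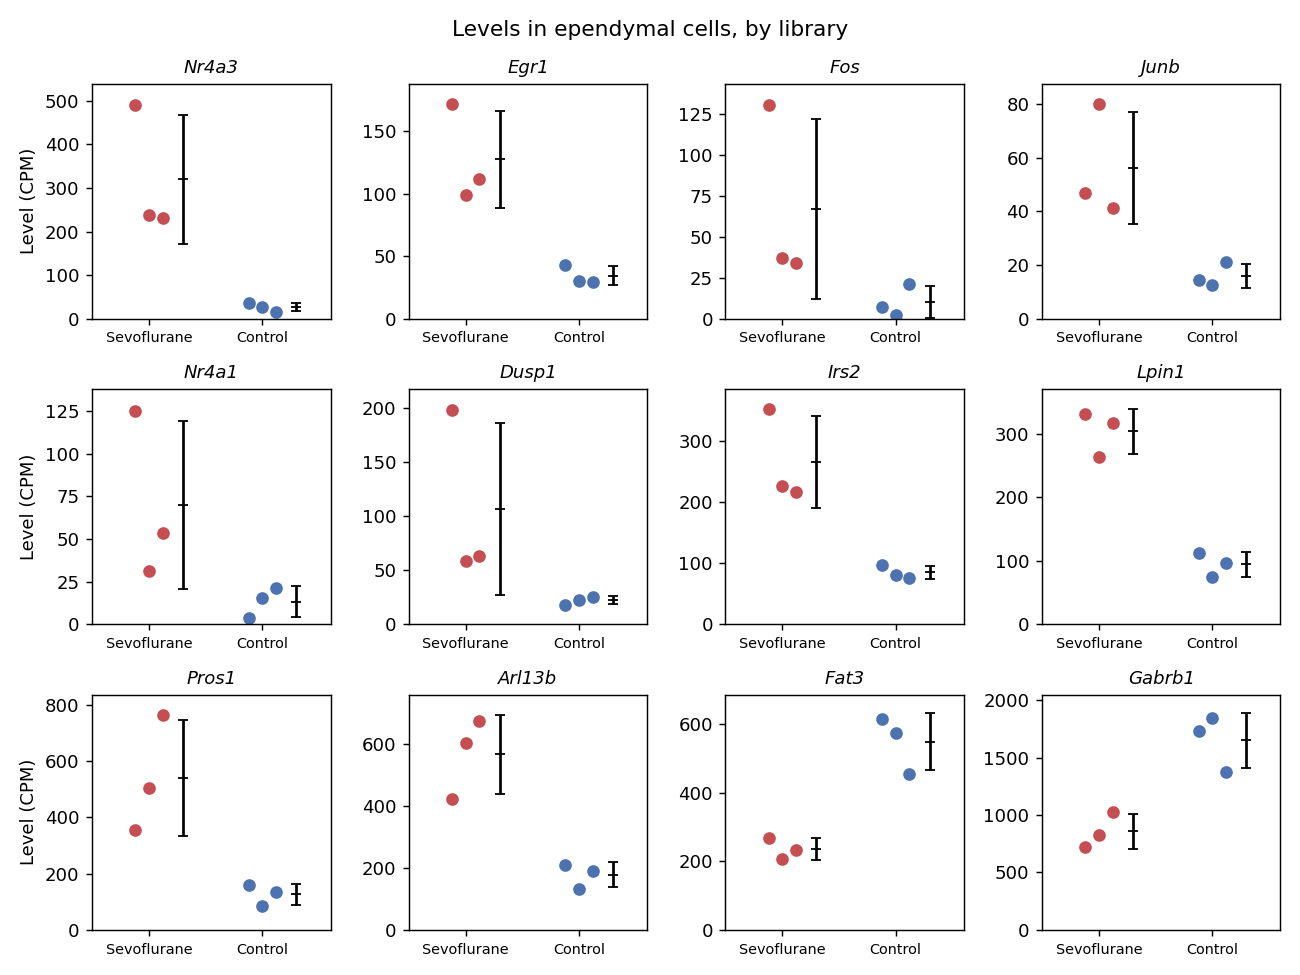
Each panel gives the level of a gene in ependymal cells (CPM with TMM factors, axis from 0) in the 3 Sevoflurane libraries (red) and the 3 Control libraries (blue), with the mean ± SD in black. The immediate-early genes Nr4a3, Egr1, Fos, Nr4a1 and Dusp1 are highest in Sevoflurane 1, the leftmost red point, and the groups do not overlap in any of the 12 panels.

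Beyond the immediate-early genes, the largest rises were in a mixed group. 4930544I03Rik, a gene without an assigned role, stood at 80.8, 58.5 and 82.7 CPM in Sevoflurane, against 0, 15.3 and 4.22 CPM in Control (log2 fold change 3.21 ± 0.49 SE, edgeR adjusted p = 0.000987). Its UMIs numbered 31, 30 and 34 in Sevoflurane, against 0, 6 and 1 in Control, so the size of the fold rests on few Control molecules, and the gene passed the filter on low counts only through its Sevoflurane libraries. Pros1, which encodes protein S, an anticoagulant and a ligand of TAM receptors, stood at 354, 503 and 762 CPM in Sevoflurane, against 159, 86.4 and 135 CPM in Control (2.12 ± 0.26 SE, adjusted p = 6.4e-05). Etnppl, an enzyme of phosphoethanolamine breakdown, rose by 2.16 ± 0.43 (SE) on the log2 scale, and Cldn14, a claudin of tight junctions, by 2.06 ± 0.38 (adjusted p = 0.015 and 0.00696). Etnppl had 55, 43 and 72 UMIs in Sevoflurane, against 18, 2 and 6 in Control, and Cldn14 had 44, 56 and 30 against 12, 4 and 5. Only 1 Control library of each was over the cutoff of the filter on low counts, so these folds too rest on few Control molecules. Iffo2, an intermediate filament family gene, rose by 1.98 ± 0.31 (adjusted p = 0.00162).

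Stx19, a syntaxin, also rose (2.33 ± 0.51 SE, adjusted p = 0.0292), on 10, 23 and 20 UMIs in Sevoflurane, against 3, 2 and 2 in Control, and it too passed the filter only through Sevoflurane. It lies at chr16:62814676-62824346 within Arl13b, at chr16:62793685-62847040 on the opposite strand, and Pros1 begins just beyond, at chr16:62854307-62929346. The strand setting of the counting is not given in the sources used here, so it is not known whether reads of Stx19 and Arl13b were kept apart. Arl13b, a small GTPase of the ciliary membrane that is in none of the ciliary lists, was picked after its values were seen. It stood at 422, 601 and 672 CPM in Sevoflurane, against 209, 132 and 190 CPM in Control (1.70 ± 0.21 SE, adjusted p = 7.84e-05). In the other kept cells its plain level was 30.8 to 33.1 CPM in Sevoflurane and 27.0 to 30.4 CPM in Control, and that of Pros1 was 10.5 to 13.6 and 11.1 to 11.8 CPM.

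Further called genes were also picked for naming after their values were seen. Lpin1, a phosphatidate phosphatase of lipid synthesis, stood at 331, 263 and 316 CPM in Sevoflurane, against 112, 73.7 and 97.0 CPM in Control (1.70 ± 0.22 SE, adjusted p = 9.43e-05). Irs2, an adaptor of the insulin receptor, stood at 352, 226 and 217 CPM in Sevoflurane, against 97.4, 81.4 and 75.9 CPM in Control (1.63 ± 0.24 SE, adjusted p = 0.000735). The groups were far apart for both, with no library near the other group. Irs2 was also called higher in astrocyte-gated cells, by 0.88 ± 0.22 (log2, SE, edgeR adjusted p = 0.0483). Dusp10, a phosphatase of stress-activated kinases, rose by 1.93 ± 0.32 (SE) and Acsl3, an acyl-CoA synthetase, by 1.15 ± 0.20 on the log2 scale (edgeR adjusted p = 0.00218 and 0.00509). Rp1, a microtubule-associated protein of the photoreceptor cilium, rose by 1.55 ± 0.31 (adjusted p = 0.0153). Nr4a3, Pros1, Arl13b, Lpin1, Irs2 and Dusp10 kept their call in all 17 alternative settings, as did the fallen Fat3 and Ttr. Other calls depended on single libraries: without Control 2 the adjusted p was 0.0601 for Iffo2, 0.146 for Acsl3, 0.166 for Cldn14, 0.238 for Etnppl, 0.314 for Rp1 and 0.381 for Stx19. The Stx19 call was also lost without Control 1, Control 3, Sevoflurane 2 or Sevoflurane 3 (adjusted p 0.0945 to 0.188), that of Rp1 without Control 1 (0.0788), and that of Etnppl without Control 3 (0.0781), without Sevoflurane 3 (0.0982) and by DESeq2 (0.798).

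Among the genes that fell, Ttr led, with 26.0, 3.90 and 4.87 CPM in Sevoflurane, against 274, 122 and 650 CPM in Control (log2 fold change -4.92 ± 0.55 SE, edgeR adjusted p = 2.14e-05). Its plain level in ependymal cells was 3.72 to 24.0 CPM in Sevoflurane and 111 to 604 CPM in Control, beside 2.28 to 2.67 CPM and 70.2 to 527 CPM over all kept cells. The summed choroid plexus list, which contains Ttr itself, was at 303 to 343 CPM in Sevoflurane and 373 to 1039 CPM in Control ependymal cells. Of its 5 tested members only Ttr was called, and 2 had positive log2 fold changes, so the sum is no separate sign of a fall. Across the other kept cells that list stood at 175 to 196 CPM in Sevoflurane and 312 to 1062 CPM in Control. A choroid plexus gate on Otx2os1 (at least 30 CP10k from 5 UMIs) took 28, 6 and 65 cells in Control 1 to 3. It took 0 cells in each Sevoflurane library. The part of free Ttr RNA and of this difference in the call was not tested.

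Fat3, an atypical cadherin, stood at 268, 207 and 234 CPM in Sevoflurane, against 617, 575 and 455 CPM in Control (log2 fold change -1.23 ± 0.18 SE, edgeR adjusted p = 0.000735). Eps8, an actin-capping protein, stood at 154, 138 and 144 CPM in Sevoflurane, against 350, 264 and 257 CPM in Control (-0.999 ± 0.20 SE, adjusted p = 0.015). No Sevoflurane library reached the lowest Control library for either gene. Rgs20, a regulator of G protein signalling, fell by 1.51 ± 0.32 (SE) on the log2 scale, Ahsa2, a co-chaperone of HSP90, fell by 1.82 ± 0.34 and the ubiquitin ligase gene Pdzrn3 fell by 1.26 ± 0.25. Ahsa2 passed the filter on low counts only through its Control libraries. Rgs20 and Fat3 were lower outside the ependymal cells too, and they were not alone. Over the other kept cells Pdzrn3 had plain levels of 41.0 to 86.1 CPM in Sevoflurane and 88.0 to 122 CPM in Control. Those of Ahsa2 were 21.3 to 21.8 and 22.2 to 24.2 CPM, and those of A230057D06Rik 265 to 393 and 403 to 434 CPM. The groups overlapped there for Eps8, Gm29683, Frmpd3 and 1700007K13Rik. Rgs20 had a plain level of 36.7 to 38.8 CPM in Sevoflurane and 62.8 to 80.4 CPM in Control over the other kept cells, and Fat3 one of 325 to 393 and 435 to 451 CPM. In astrocyte-gated cells both were called, with log2 fold changes of -0.94 ± 0.18 for Rgs20 and -0.70 ± 0.17 for Fat3 (SE, edgeR adjusted p = 0.00635 and 0.0403). Gm29683, A230057D06Rik, Frmpd3 and 1700007K13Rik also fell, with log2 fold changes of -2.11, -1.499, -1.18 and -1.14. Without Control 1 the adjusted p was 0.0684 for Rgs20, 0.0906 for Pdzrn3, 0.109 for Ahsa2 and 0.137 for Eps8, and without Control 2 it was 0.2198 for Rgs20. Gm29683, A230057D06Rik, Frmpd3 and 1700007K13Rik each lost their call under some settings too. Of the last, 1700007K13Rik was nearly limited to ependymal cells, with a plain level of 103 CPM against 0.876 CPM in the other kept cells. Gabrb1, a subunit of the GABA-A receptor on which sevoflurane acts, was picked after its values were seen. It stood at 724, 831 and 1027 CPM in Sevoflurane, against 1731, 1843 and 1379 CPM in Control (-0.94 ± 0.17 SE, adjusted p = 0.00504). The edgeR adjusted p of Gabrb1 was 0.108 without Control 2 and 0.0604 in cells with few neuron markers. Its plain level in the other kept cells was 1250 to 1545 CPM in Sevoflurane and 1387 to 1433 CPM in Control. In astrocyte-gated cells it was 3779 to 4112 CPM in Sevoflurane and 4195 to 4620 CPM in Control.

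Lists for other tasks of the ependyma and for stress had almost no calls, and every list with 0 calls by edgeR had 0 by DESeq2 too. Only 0.562% of all genes tested were called by edgeR, so 0 calls in lists this short do not set them apart from other genes. Of 15 tested genes of water and ion transport, 0 were called, and the sodium bicarbonate cotransporter Slc4a4 had the lowest value, 272 ± 132 CPM in Sevoflurane and 451 ± 132 CPM in Control (SD, n = 3 each, adjusted p = 0.337). Of 11 junction and adhesion genes and 12 planar cell polarity genes, which align the cilia, 0 were called. Glial and progenitor genes were called in 0 of 18, with a median log2 fold change of -0.25 and 2 positive values, and Notch1 stood at 38.4 ± 8.82 CPM in Sevoflurane and 73.5 ± 9.62 CPM in Control (adjusted p = 0.248). Secreted and lipid transport genes were called in 0 of 15.

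The glucocorticoid-responsive list had Dusp1 as its only called member, 1 higher and 0 lower of 14 tested. Its median log2 fold change was 0.43, with 13 positive values. Sgk1, a kinase induced by steroids, was not called, at 52.1, 70.2 and 75.4 CPM in Sevoflurane and 39.7, 27.97 and 29.5 CPM in Control. Of 8 tested genes of cholesterol synthesis 0 were called, with a median log2 fold change of 0.31 and 7 positive values. The plain summed level of that list was 622 to 728 CPM in Sevoflurane and 521 to 588 CPM in Control. Ribosomal protein genes were called in 0 of 49, with a median of 0.18 and 40 positive values, and nuclear oxidative phosphorylation genes in 0 of 35, with a median of 0.27. Library differences of the same kind were seen outside the ependymal cells: ribosomal protein genes summed to 2882 to 3894 CPM in Sevoflurane and 2394 to 3026 CPM in Control over the other kept cells, and the part of these differences in the medians was not tested. The unfolded protein response was called in 0 of 14 with a median of -0.27, and cytosolic heat shock in 0 of 14 with a median of 0.10. Interferon and antigen presentation was called in 0 of 4, with a median of 0.79, 4 positive values and 18 members untested for low counts.

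The third comparison asked whether the ependymal change differed from that of astrocyte-gated cells, the glia most like them, in the same libraries. The interaction of cell set and group in edgeR, with the library as a block, was called for 18 of 9737 genes (0.185%). Tested alone, astrocyte-gated cells had 127 of 9505 genes called (1.34%). For Nr4a3 the effect in ependymal cells minus that in astrocyte-gated cells was 3.66 ± 0.46 (log2, SE, adjusted p = 5.09e-06), since the astrocyte change was -0.32 ± 0.34. Egr1 differed by 1.77 ± 0.40 (adjusted p = 0.0439), Arl13b by 1.59 ± 0.30 (adjusted p = 0.00433) and Pros1 by 1.43 ± 0.33 (adjusted p = 0.0443). Without Control 2 the adjusted p was 0.267 for Egr1, 0.087 for Arl13b and 0.493 for Pros1. The Egr1 call was also lost without Control 3 (0.255), Sevoflurane 1 (0.0571) or Sevoflurane 3 (0.1303), that of Pros1 without Control 3 (0.158) or Sevoflurane 3 (0.244), and that of Arl13b without Control 1 (0.0537). Nr4a3 was called whichever library was left out. Fos, Junb, Nr4a1, Dusp1, Lpin1 and Irs2 were not called in this test, so their changes were not shown to differ between the cell sets.

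**Figure D5:**
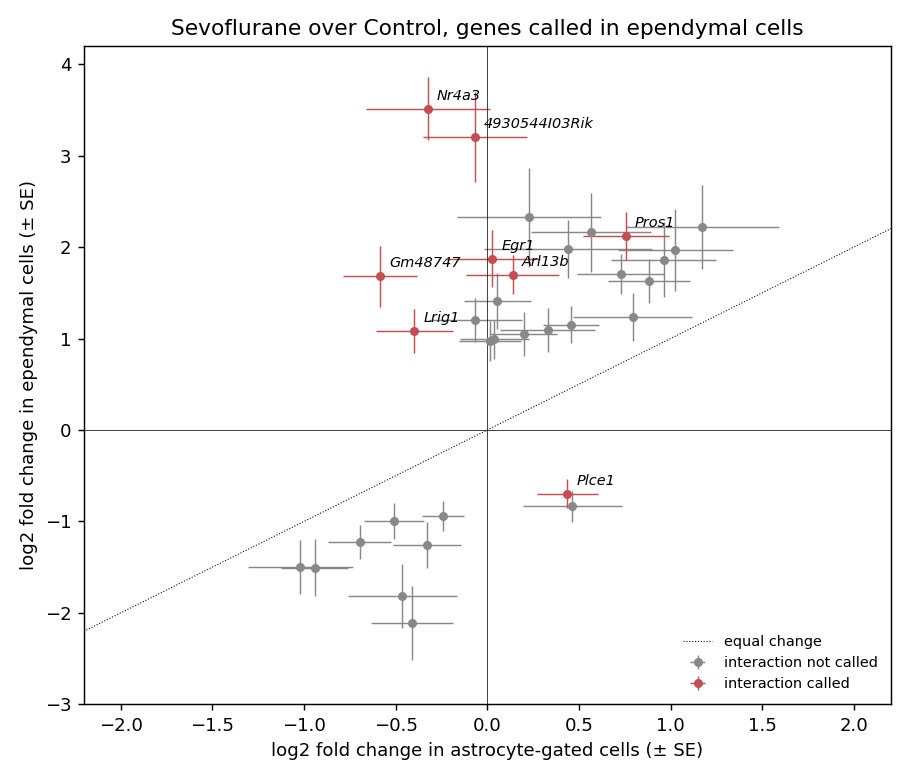
Each point is a gene called in ependymal cells, with its log2 fold change, Sevoflurane over Control, in ependymal cells (y axis) and in astrocyte-gated cells (x axis), ± SE. The plot holds the 33 called genes tested in both sets other than Ttr; red points passed the interaction test and the dotted line marks equal change. Nr4a3 lies at 3.51 in ependymal cells and -0.32 in astrocyte-gated cells.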

How the data were processed

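The deposited counts, UMIs of a gene in a barcode without normalization, came, per the file headers, from a Cell Ranger 6.1.1 run by the authors. The submitters' processing notes also name CASAVA 1.8 and Seurat without saying what each did. Genome build, annotation and strand setting are not given in the sources used here. Of 31253 genes, 31184 matched GENCODE M21 by Ensembl ID. Kept barcodes had 500 or more UMIs, 300 or more genes and a mitochondrial share of up to 20%. Astrocyte-gated cells had at least 20 CP10k from 5 UMIs of 6 astrocyte genes and under 10 CP10k of the ependymal gate genes. Doublets were scored with Scrublet in scanpy 1.11.5 but kept in the main analysis; their removal (2.74% to 19.0% of ependymal cells per library) was an alternative.

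Counts were summed per library, 255165 to 538304 UMIs in ependymal cells, filtered with filterByExpr, TMM-normalized and tested in edgeR 4.0.16 (R 4.3.3) without a replicate term, with Benjamini-Hochberg adjustment. DESeq2 1.42.0 was an alternative. SEs are the fold over the root of its F. The code was tested on simulated data. Of the genes called in the interaction test, 1 is not reported here. Free RNA was not corrected. Shares of cells were compared at 2000 UMIs, leaving out 25 Sevoflurane and 13 Control ependymal cells that were shallower. Each UMI counts a captured molecule near a transcript's 3′ end, and levels are not compared between genes.

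The cell gate, the gene lists and the tests were chosen with earlier results of these data known. Genes named were the gate genes, the 10 largest called rises and falls of at least 20 CPM without overlap, called list members, the 2 highest of each ciliary list, the 15 with the highest ratio to other cells and the extremes of lists without a call, of which a part is printed; others are said to be picked later.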

Additional observations from a re-analysis of the deposited data

Results flagged for a closer look

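The effect of sevoflurane differed between ependymal and astrocyte-gated cells for 9 of the named genes, by edgeR's interaction test. The ependymal minus the astrocyte effect, on the log2 scale, was 3.657 for Nr4a3, 3.328 for 4930544I03Rik, 2.253 for Gm48747, 1.766 for Egr1, 1.59 for Arl13b, 1.509 for Lrig1 and 1.425 for Pros1, and it was -1.144 for Plce1 and -2.494 for Frmpd3. Gm48747, Lrig1 and Plce1 had ependymal changes of 1.68, 1.08 and -0.70, beside -0.59, -0.40 and 0.44 in astrocyte-gated cells. The Gm48747 change rests on 5, 9 and 11 UMIs in Control ependymal cells, with 1 Control library over the cutoff of the filter. With a library left out in turn, the call held every time for Nr4a3 and 4930544I03Rik and not for the other 7 genes. Without Control 2 the adjusted p of those was 0.0693 for Gm48747 and Frmpd3, 0.157 for Lrig1, 0.0559 for Plce1, 0.267 for Egr1, 0.087 for Arl13b and 0.493 for Pros1. Frmpd3 was not tested on its own in astrocyte-gated cells because of low counts. Sevoflurane 1, which alone had Xist above 1.21 CPM, held 117 of the 1243 astrocyte-gated cells, against 195 to 240 in each other library, and its part in these differences was not tested beyond leaving it out.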

How the results depend on the processing

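The 44 calls in ependymal cells became 99 without the filter on low counts, 28 with the stricter gate (60 CP10k), and 18 in cells with few neuron markers, an alternative chosen after seeing the data. Leaving out each library in turn gave 13 (without Control 2) to 61 (without Sevoflurane 1), and 17, 25, 27 and 36 without Control 1, Control 3, Sevoflurane 2 and Sevoflurane 3. DESeq2 called 31. The 18 interaction calls became 46 without the filter, 31 with doublets removed, and 2 (without Control 2) to 60 (without Sevoflurane 1) with a library left out. The 0 calls in the ciliary lists came with 10 unadjusted p-values under 0.05. With the replicate number as a block 68 genes were called, 44 of them the same. Deviations of same-numbered libraries from their group means had correlations of -0.031, 0.0026 and -0.050 over the tested genes. Such a correlation would miss a batch that touched few genes. The labels do not say whether a number marks a shared batch. Uncalled genes near 0 changed sign when a library was left out, over the ranges -0.85 to 0.75 for Cryab, -0.16 to 0.35 for Ctnnb1, -0.062 to 0.83 for H2-D1, -0.60 to 0.021 for Ndufv1, -0.44 to 0.013 for Rps2 and -0.17 to 0.13 for Srebf2. Srebf2 was also 0.15 with the stricter gate and 0.20 in cells with few neuron markers, where Ctnnb1 was -0.077. No called gene changed sign under any of these settings. The causes were not tested. Few cells per library (58 to 154) limit low genes most: 7830 of the genes were tested, and a gene below 23.5 CPM in most libraries could not be.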
